A study of Mus musculus with 2 samples.

Results

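The Mir106b-25 and Mir106a-363 clusters are the paralogs, on chromosomes 5 and X, of the Mir17hg cluster on chromosome 14. Their 9 genes were taken by name from the 1973 microRNA genes of the count tables: Mir106b, Mir93 and Mir25, which lie within the gene Mcm7, and Mir106a, Mir18b, Mir20b, Mir19b-2, Mir92-2 and Mir363 on chromosome X. All 9 were found, all 9 had at least 10 counts in each library, and none had a read on the opposite strand. The tissue was forebrain from mouse embryos of strain B6NCrl at day 13.5 of gestation, with males and females pooled and health state given as healthy. There was 1 group, untreated as far as the labels say, with 2 libraries named biological replicates 1 and 2, made from RNA under 30 nucleotides. The libraries carry separate biosample identifiers and 1 donor identifier, and the labels do not give the number of embryos in a pool. With 1 group the comparisons are between genes, between clusters and between the libraries, and the last of these may be in part technical.

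MicroRNAs are cut from hairpin precursors and loaded into Argonaute proteins, where bases 2 to 8, the seed, pair with messenger RNAs and lower their output. MicroRNAs that share a seed share many target sites. MicroRNAs with the miR-17 and miR-25/92 seeds are known for their use in proliferating cells, including progenitors of the embryonic brain, and for restraining the cell-cycle inhibitor p21 and the pro-apoptotic protein Bim. Mcm7, the host of the chromosome 5 cluster, encodes a subunit of the helicase that opens DNA at replication origins.

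The mature sequences, from RefSeq on GRCm38.p6 with the seed in capitals, show which members can be compared with each other. Each is the arm usually taken as the main product of its hairpin. The counts are per gene and do not say which arm was sequenced.

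The miR-17 seed is carried by Mir106b and Mir93 of the chromosome 5 cluster, by Mir106a and Mir20b of the X cluster, and by Mir17 and Mir20a of the Mir17hg cluster:
miR-106b-5p: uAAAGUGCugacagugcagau
miR-93-5p: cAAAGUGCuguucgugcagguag
miR-106a-5p: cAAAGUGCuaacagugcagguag
miR-20b-5p: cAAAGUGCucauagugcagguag
miR-17-5p: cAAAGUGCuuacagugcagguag
miR-20a-5p: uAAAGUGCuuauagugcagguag

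The miR-25/92 seed is carried by Mir25 of the chromosome 5 cluster, by Mir92-2 and Mir363 of the X cluster, and by Mir92-1 of the Mir17hg cluster, whose mature form equals that of Mir92-2. Mir92b, on chromosome 3, carries it too:
miR-25-3p: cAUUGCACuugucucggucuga
miR-92a-3p: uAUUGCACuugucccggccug
miR-363-3p: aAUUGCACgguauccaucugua
miR-92b-3p: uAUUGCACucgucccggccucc

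The miR-18 and miR-19 seeds have no member in the chromosome 5 cluster. In the X cluster Mir18b carries the first and Mir19b-2 the second, and Mir19b-2 has the same mature form as Mir19b-1 of the Mir17hg cluster:
miR-18b-5p: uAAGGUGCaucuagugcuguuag
miR-18a-5p: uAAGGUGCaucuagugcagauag
miR-19b-3p: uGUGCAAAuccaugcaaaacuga

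Outside the seed most relatives differ by few bases. Counted from base 1, miR-106a-5p and miR-17-5p differ by A10U alone, over 23 bases. The mature forms of Mir106b and Mir106a differ at 3 of 21 bases compared, those of Mir93 and Mir20b at 3 of 23, and those of Mir25 and Mir92-2 at 3 of 21. Mir363 is the distant member, with 13 differences from Mir25 over 22 bases, all of them outside the seed.

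Both clusters run on the minus strand and are compact (coordinates from GENCODE M21, GRCm38, also called mm10). The Mcm7 cluster spans 498 bases of chromosome 5, from 138165321 to 138165818. Its hairpins, in order of transcription Mir106b, Mir93 and Mir25, lie in the intron between exons 13 and 14 of the full-length Mcm7 transcript, and Mir93 and Mir25 also lie in exon 1 of a short annotated one. The X cluster spans 875 bases, from 52741693 to 52742567, in the order Mir106a, Mir18b, Mir20b, Mir19b-2, Mir92-2 and Mir363. The first 5 bases of the Mir106a hairpin overlap the last exon of the noncoding gene Kis2 in 3 of its annotated transcripts, and the other hairpins of the X cluster lie outside Kis2 as annotated.

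The chromosome 5 cluster was far the more abundant of the pair. Levels are given as CPM, the counts of a gene relative to 1000000 counts on microRNA genes in the library. RNA under 30 nucleotides takes in a mature microRNA whole, so no correction for length was made. The Mcm7 cluster held 155204 counts in replicate 1 and 155755 in replicate 2, which is 3.77% and 3.98% of the gene counts (mean 3.88% ± 0.152, SD, n = 2). The 6 X genes together held 13696 and 10918 counts, or 0.333% (95% Wilson interval 0.327 to 0.338) and 0.279% (0.274 to 0.285). The Mcm7 cluster therefore exceeded the X cluster by 11.3 times in replicate 1 and 14.3 times in replicate 2 (mean 12.8 ± 2.07, SD, n = 2), although it has 3 genes against 6. In bulk tissue fewer cells that express a cluster and less RNA per cell cannot be told apart. A permutation test over 2 libraries cannot reach a p of 0.05, so ratios are given with exact (Clopper-Pearson) intervals that cover counting error only.

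**Figure D1:**
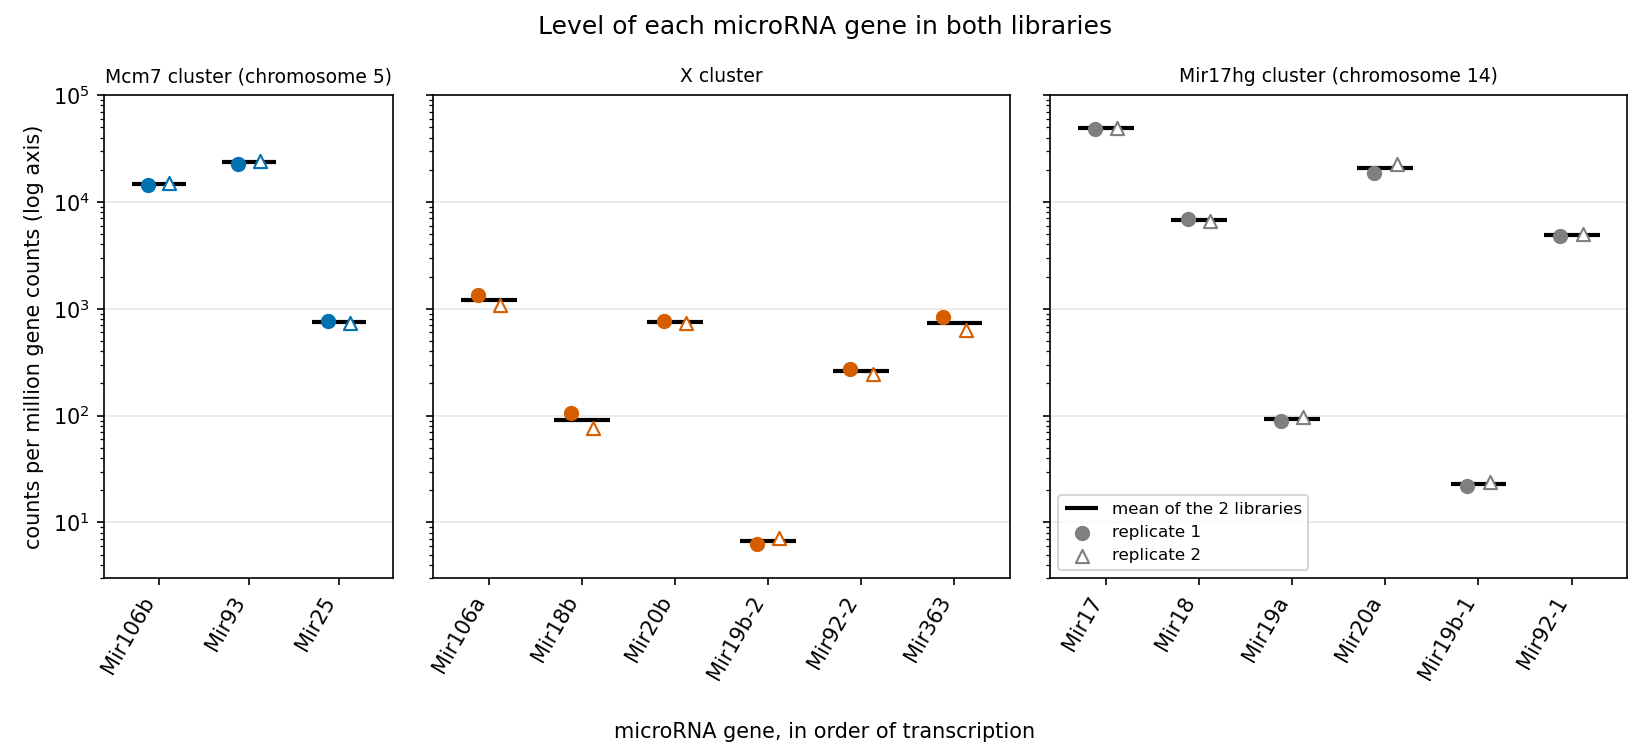
Level of each gene in CPM (log axis) for the Mcm7, X and Mir17hg clusters, with genes in order of transcription, 1 filled circle for replicate 1, 1 open triangle for replicate 2 and a bar at their mean. Mir93 and Mir106b stand at 14302 to 24195 CPM, while the X genes lie between 6.31 and 1333 CPM.

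Mir93 (ENSMUSG00000065527.1) was the most abundant member, with 93171 counts (22627 CPM) in replicate 1 and 94577 counts (24195 CPM) in replicate 2. It ranked 10 among all genes of the tables by mean CPM. Mir106b (ENSMUSG00000065514.1), the first hairpin of the intron, had 58893 counts (14302 CPM) in replicate 1 and 58311 counts (14917 CPM) in replicate 2, and ranked 18. The ratio of Mir93 to Mir106b was 1.58 in replicate 1 and 1.62 in replicate 2, so the order was the same in both libraries. Mir25 (ENSMUSG00000065394.1), the third hairpin of the same intron, stood far lower, at 3140 counts (763 CPM) in replicate 1 and 2867 counts (733 CPM) in replicate 2. Mir93 exceeded Mir25 by 29.7 times in replicate 1 and 33.0 times in replicate 2, and Mir25 made up 2.02% and 1.84% of the counts of the cluster. How evenly the mature forms were captured was not measured, so the gap between hairpins of 1 transcript is a gap in reads counted.

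In the X cluster Mir106a (ENSMUSG00000065456.1) led, with 5488 counts (1333 CPM) in replicate 1 and 4257 counts (1089 CPM) in replicate 2. Mir20b (ENSMUSG00000076041.1), the other carrier of the miR-17 seed there, had 3133 counts (761 CPM) in replicate 1 and 2886 counts (738 CPM) in replicate 2. Mir363 (ENSMUSG00000070106.1), the last hairpin, had 3479 counts (845 CPM) in replicate 1 and 2493 counts (638 CPM) in replicate 2. Of the counts of the cluster Mir106a held 39.5%, Mir20b 24.7% and Mir363 24.1%, as means of the 2 libraries. Mir106a was the highest X gene in both libraries, and all 3 were higher in replicate 1 in CPM.

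The remaining X genes were lower. Mir92-2 (ENSMUSG00000065613.1) had 1133 counts (275 CPM) in replicate 1 and 956 counts (245 CPM) in replicate 2. Mir18b (ENSMUSG00000077111.2), which carries the miR-18 seed, had 437 counts (106 CPM) in replicate 1 and 298 counts (76.2 CPM) in replicate 2. Mir19b-2 (ENSMUSG00000065473.1) was the lowest of the 9 members, with 26 counts (6.31 CPM) in replicate 1 and 28 counts (7.16 CPM) in replicate 2. In order of mean CPM the members ran Mir93, Mir106b, Mir106a, Mir20b, Mir25, Mir363, Mir92-2, Mir18b and Mir19b-2. Mir20b, Mir25 and Mir363, at 749.6 ± 15.9, 748 ± 20.6 and 741 ± 146 CPM, overlapped in their library ranges and could not be ordered, while all other neighbours in the order were apart in both libraries. The genes outside the clusters nearest in mean CPM over the 2 libraries were Mir149 (25057 ± 2465 CPM) and Mir100 (26181 ± 2444 CPM) for Mir93, and Mir467c (1210 ± 33.0 CPM) and Mir154 (1188 ± 133 CPM) for Mir106a.

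Mir92-2 and Mir19b-2 are the members whose counts are least certain. Their mature forms are also made by Mir92-1 and Mir19b-1 of the Mir17hg cluster, and the tables hold reads that map to several places in a row of their own. The copied stretch with 4 bases on either side, with capitals at the bases that differ between the 2 hairpins, shows how much of a read would have to lie outside the mature form to be placed:
Mir92-2, chromosome X: aAAguauugcacuugucccggccugAGga
Mir92-1, chromosome 14: aUGguauugcacuugucccggccugUUga
Mir19b-2, chromosome X: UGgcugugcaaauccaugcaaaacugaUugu
Mir19b-1, chromosome 14: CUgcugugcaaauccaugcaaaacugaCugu

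The longest exact stretch shared was 22 bases for Mir92-2, 1 more than the mature form, and 25 bases for Mir19b-2, 2 more. A read of the annotated mature form alone fits both loci in each case. The other 7 members shared at most 17 bases with any other mouse microRNA hairpin of the RefSeq sequences used, which was Mir18b with Mir18. Some genes of the count tables, Mir122 and Mir143 among them, were not found there by symbol. Mir92-2 counts were 5.72% of Mir92-1 counts in replicate 1 and 4.90% in replicate 2, and Mir19b-2 counts were 28.6% and 30.1% of Mir19b-1 counts. These are ratios of the reads that could be placed. Multi-mapped reads were 40.6% of the total in replicate 1 and 43.9% in replicate 2, and which genes they came from was not tested.

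Compared by seed, the Mcm7 cluster far exceeded the X cluster for the miR-17 seed and did not for the miR-25/92 seed. For the miR-17 seed the Mcm7 members held 152064 counts in replicate 1 and 152888 in replicate 2, against 8621 and 7143 for the X members. The ratio was 17.6 (95% exact interval 17.3 to 18.0) in replicate 1 and 21.4 (20.9 to 21.9) in replicate 2. All 4 pairs of members went the same way in both libraries. The smallest excess was Mir106b over Mir106a, at 10.7 in replicate 1 and 13.7 in replicate 2, and the largest was Mir93 over Mir20b, at 29.7 and 32.8.

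For the miR-25/92 seed, Mir25 alone stood for the Mcm7 cluster and was at 0.681 (0.650 to 0.713) of the X members in replicate 1 and at 0.831 (0.791 to 0.874) in replicate 2. Against Mir363 the direction differed between the libraries, at 0.903 (0.860 to 0.947) in replicate 1 and 1.15 (1.09 to 1.21) in replicate 2, so no order of Mir25 and Mir363 could be given. With Mir92-2 left out as a gene with a copy, this pair is the whole comparison. The X cluster was then higher in replicate 1 and the Mcm7 cluster in replicate 2. An order of the clusters shared by both libraries for this seed therefore rests on Mir92-2. Mir25 exceeded Mir92-2 by 2.77 times in replicate 1 and 3.00 times in replicate 2, with counting intervals that overlapped.

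**Figure D2:**
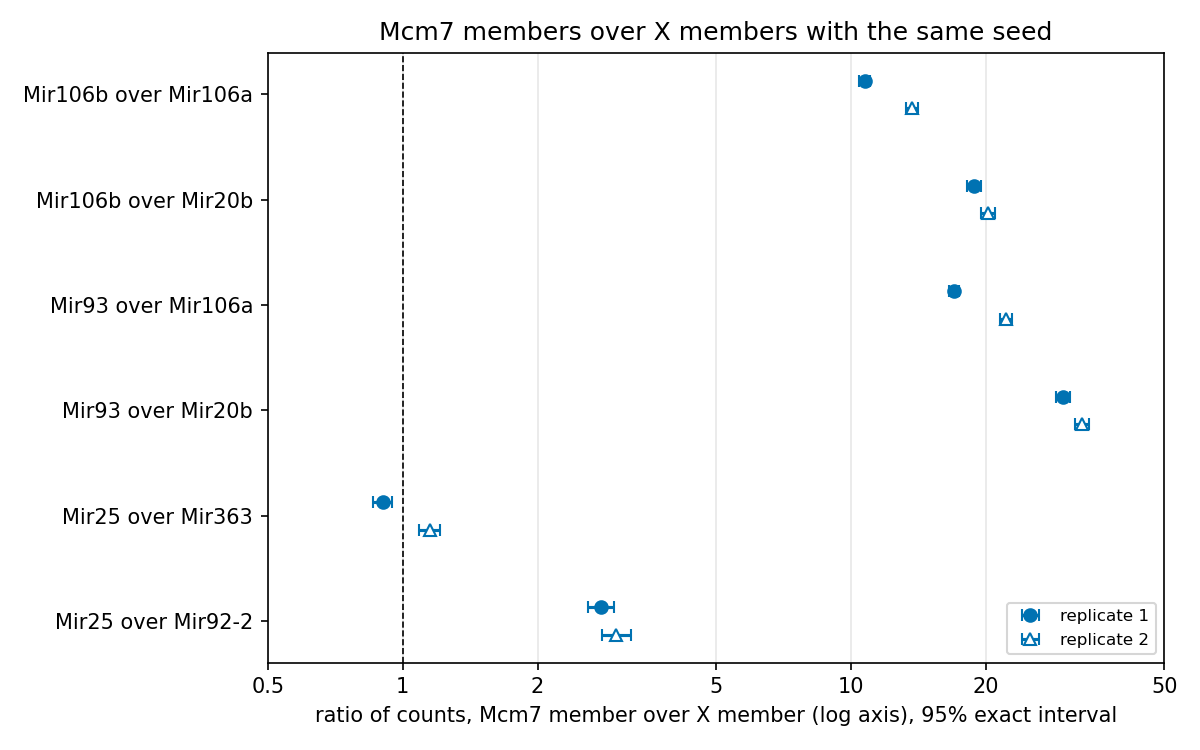
Ratio of counts of an Mcm7 member over an X member with the same seed (log axis), with exact 95% intervals for counting error, filled circles for replicate 1 and open triangles for replicate 2. The 4 miR-17 pairs lie between 10.7 and 32.8, Mir25 over Mir92-2 near 3.00, and Mir25 over Mir363 on either side of the dashed line at 1.

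Among all genes of the tables with the miR-17 seed, which held 10.6% of the gene counts in replicate 1 and 11.3% in replicate 2, the Mcm7 cluster supplied 34.7% and 34.5% and the X cluster 1.97% and 1.61%. Mir17 and Mir20a of the Mir17hg cluster supplied the rest, and Mir6383, which also carries the seed, had 0 counts in both libraries. The share of the Mcm7 cluster was close in the libraries (34.6% ± 0.124, SD, n = 2). Mir93 stood at 46.6% of Mir17 in replicate 1 and 48.9% in replicate 2, and above Mir20a, at 1.20 and 1.06 times its counts. Mir106a stood at 2.75% and 2.20% of Mir17, from which it differs at 1 base. How many of its counts were reads of Mir17 with a changed base was not tested.

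Most counts placed on genes with the miR-25/92 seed lay outside both clusters. Genes with that seed held 2.09% of the gene counts in replicate 1 and 1.99% in replicate 2. Of these, Mir25 made up 3.65% and 3.69%, and the X members Mir92-2 and Mir363 together 5.36% and 4.44%. Mir92b, which lies outside the 3 clusters, held 66.5% and 65.2%, and Mir92-1 held 23.0% and 25.1%. Mir32, which carries the seed on its 5p arm, held 1.50% and 1.58%, and Mir367 had 0 and 1 counts. In the other seeds, Mir18b made up 1.51% and 1.13% of the miR-18 seed counts, and Mir19b-2 5.38% and 5.60% of the few miR-19 seed counts (483 and 500 in all). The shares of the miR-19 and miR-25/92 seeds cover only reads that could be placed, since reads of miR-19b-3p and miR-92a-3p alone fit 2 genes each. With those genes left out, Mir92b held 88.2% of the miR-25/92 seed counts and Mir25 4.91%, as means of the 2 libraries.

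**Figure D3:**
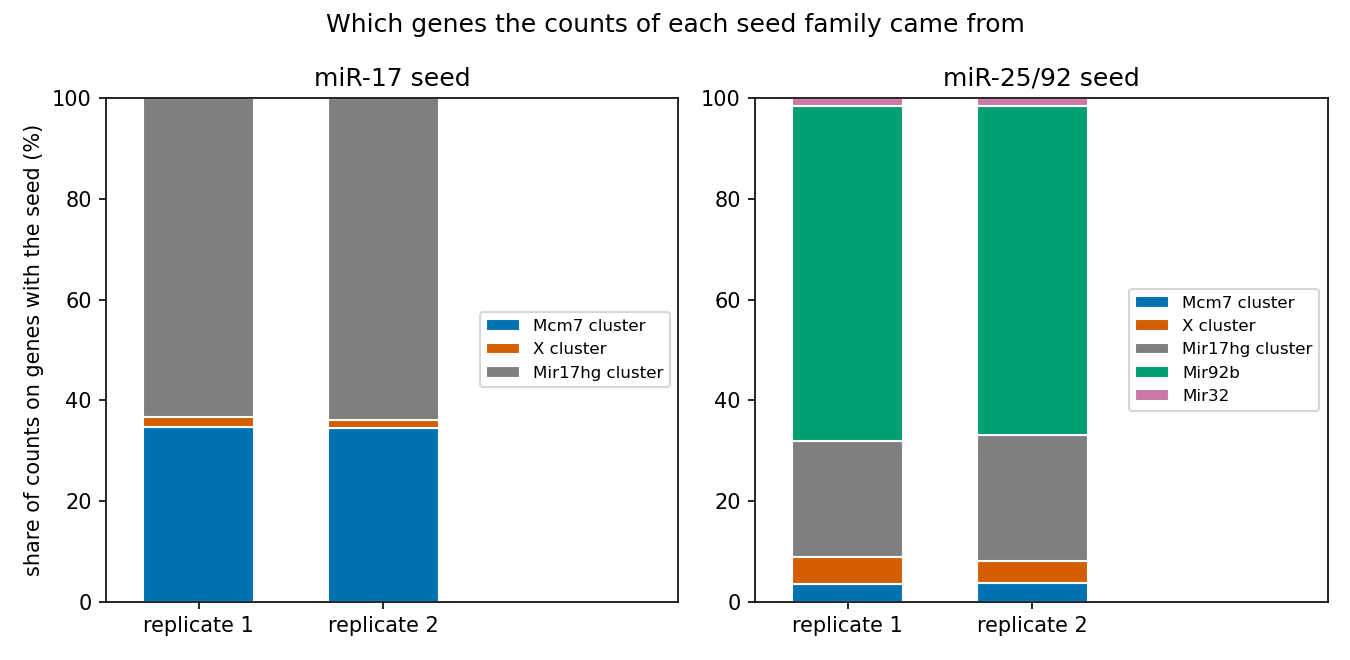
Share of the counts on genes with the miR-17 seed (left) and the miR-25/92 seed (right) by source, in percent, 1 bar per library; Mir6383 and Mir367, with at most 1 count, are not drawn. The Mcm7 cluster makes up 34.7% and 34.5% of the miR-17 seed counts but 3.65% and 3.69% of the miR-25/92 seed counts.

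Between the libraries the summed counts of the 2 clusters went in opposite directions, judged on counting error only. The log2 ratio of replicate 1 over replicate 2, after TMM normalization, was -0.19 for the summed Mcm7 cluster (exact interval -0.20 to -0.18) and 0.14 for the summed X cluster (0.11 to 0.18). Of the 6 X genes 4 were higher and 2 lower in replicate 1, and all 3 Mcm7 genes were lower. The Mcm7 cluster was at 47.6% of the counts of the Mir17hg cluster in replicate 1 and 47.4% in replicate 2, whereas the X cluster was at 4.20% and 3.32%. The ratio of the Mcm7 cluster to the X cluster given above, 11.3 in replicate 1 and 14.3 in replicate 2, had exact counting intervals that did not overlap.

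Gene by gene, 5 of the 9 members passed a two-sided exact binomial test at a Benjamini-Hochberg adjusted p under 0.05, against 38.9% of all 475 genes tested. In the X cluster 3 of 6 were higher in replicate 1 and 0 lower, against a background of 20.8% higher. These were Mir363 (log2 ratio 0.30, exact adjusted p = 2.27e-14), Mir106a (0.18, exact adjusted p = 3.19e-09) and Mir18b (0.37, exact adjusted p = 0.00245). In the Mcm7 cluster 2 of 3 were lower in replicate 1, against a background of 18.1%: Mir93 (-0.21, exact adjusted p = 3.87e-207) and Mir106b (-0.17, exact adjusted p = 1.58e-88). In the Mir17hg cluster 4 of 6 genes passed, all of them lower in replicate 1. Mir25 (-0.05), Mir20b (-0.07), Mir92-2 (0.06) and Mir19b-2 (-0.29) did not pass. The background depends on depth. With at least 50 counts in each library, 171 of 293 genes (58.4%) passed, 88 higher and 83 lower in replicate 1. At that floor 5 of the 8 members tested passed. The median log2 ratio of the 9 members was -0.05, and that of all genes tested was -0.02.

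This test compares the reads of 2 libraries and not conditions. An edgeR exact test with the dispersion estimated from the same libraries called 0 of the 9 members and 1 gene in the whole table, and 0 members had an unadjusted p under 0.05. That dispersion holds the difference between these same libraries. The member farthest apart was Mir18b, at 1.29-fold after TMM. TMM lowers all ratios by 0.11 relative to library totals, and with totals Mir25 and Mir20b change sign, at 0.06 and 0.04. Over all genes tested, TMM gave 99 genes higher and 86 lower in replicate 1, and totals gave 141 higher and 54 lower.

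**Figure D4:**
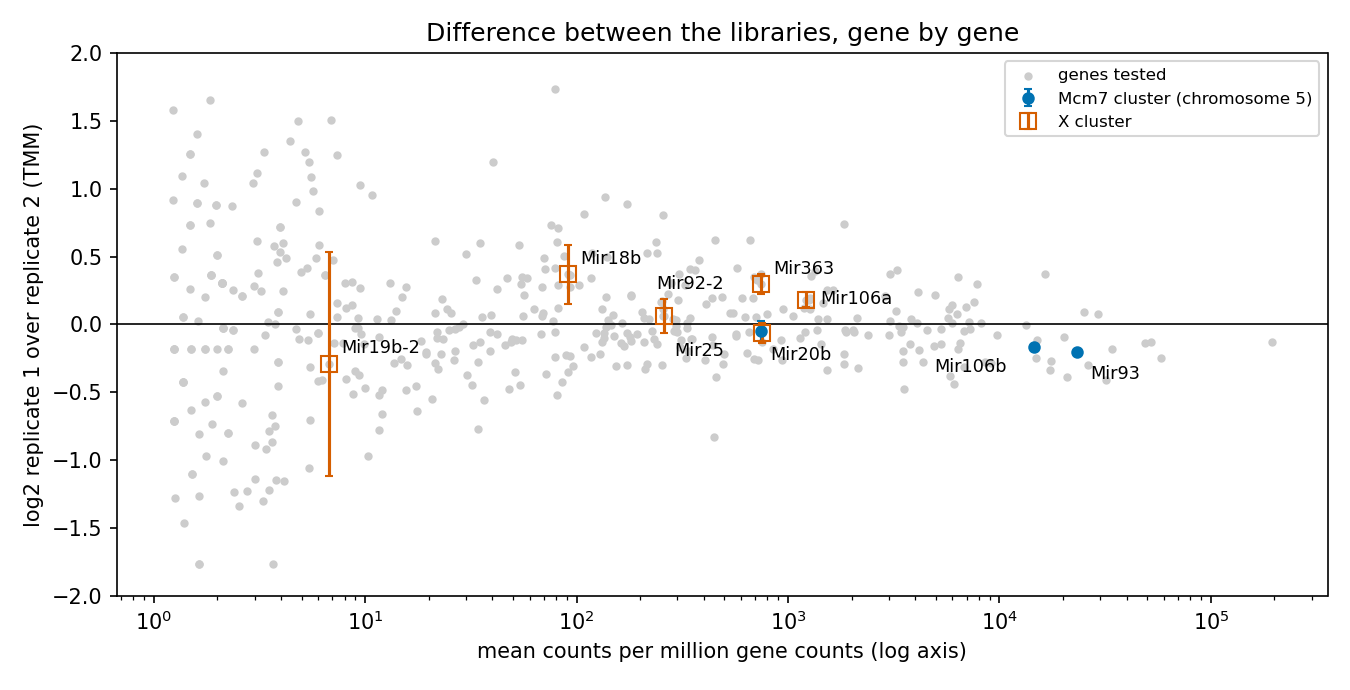
Log2 ratio of replicate 1 over replicate 2 after TMM against mean CPM (log axis) for the genes tested, in grey, with the Mcm7 members as filled circles and the X members as open squares with exact 95% intervals; 7 of the 475 genes lie beyond the axis at 2 and are not drawn. Mir363, Mir106a and Mir18b lie above 0, and Mir93 and Mir106b below it.

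Genes of the tissue lists also differed between the libraries, in both directions. The pluripotency list (Mir302a, Mir302b, Mir302c, Mir302d and Mir367) summed to 1192 CPM in replicate 1 and 801 CPM in replicate 2, with 4 of 5 detected and those 4 higher in replicate 1 after TMM. The list leaves out the Mir290 cluster. Of that cluster Mir292, Mir293 and Mir294, at 11 to 40 counts, did not pass the test (log2 ratios 0.25, -0.07 and 0.41). The neural list summed to 27236 CPM in replicate 1 and 23525 CPM in replicate 2, but after TMM 3 of its 8 detected genes were higher in replicate 1 and passed the test: Mir137, Mir128-1 and Mir128-2. The erythroid list summed to 150 and 76.2 CPM, with its 2 genes apart: Mir451a was higher in replicate 1 (log2 ratio 1.73, exact adjusted p = 3.25e-41) and Mir144 lower (-0.77, exact adjusted p = 5.24e-05). The endothelial Mir126a stood at 16042 CPM in replicate 1 and 18828 CPM in replicate 2, and the mural list (Mir143 and Mir145a) summed to 3130 and 4019 CPM. The mural difference lay in Mir143, at 3081 CPM in replicate 1 and 3970 CPM in replicate 2, with Mir145a at 48.8 and 49.6 CPM. The leukocyte list (Mir223 and Mir155) summed to 259 CPM in each library, with Mir223 lower in replicate 1 (log2 ratio -0.30, exact adjusted p = 0.0117) and Mir155 at 0.01. Their part in the difference of the X cluster was not tested. As a check of the tissue label, 8 of the 10 neural genes in the tables were detected, led by Mir92b (13430 ± 660 CPM) and Mir137 (7852 ± 1559 CPM), while the 3 genes of neuronal miR-124 had at most 20 counts in a library. Liver Mir122 stood at 59.3 CPM in replicate 1 and 52.7 CPM in replicate 2. Of 4 striated muscle genes Mir1a-1, Mir133a-1 and Mir133a-2 were at 0, and Mir208b had 156 counts (37.9 CPM) and 132 counts (33.8 CPM). The genes of miR-124 make 1 mature form, and so do those of miR-133a, those of miR-9, and Mir128-1 with Mir128-2. Reads that fit several genes of such a family stand outside these counts. The values of these genes, low ones included, do not give the level of the microRNA. The sequences searched for copies lacked some genes of these lists by symbol, Mir122 and Mir133a-1 among them. A second gene for the mature form of Mir1a-1 could therefore have been missed. The 0 of Mir1a-1 does not show that its microRNA was absent.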

How the data were processed

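The authors deposited a table of raw counts for each library, with columns for either strand, the strand of the gene and the opposite strand, and 4 summary rows. The deposited read-me texts name build mm10 and annotation GENCODE M4; the sources used here do not give the aligner or counter. Own-strand counts were used. Replicate 1 held 10631040 reads (4117752 gene counts) and replicate 2 held 10452225 (3908953), so 1 count equals 0.243 and 0.256 CPM. Summary rows entered neither library sizes nor tests: 16.7% and 15.0% of reads were unmapped, 40.6% and 43.9% multi-mapped, 3.99% and 3.71% unassigned.

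Symbols came from GENCODE M21 (1894 of 1973 identifiers matched) and sequences from RefSeq (all 9 members). Libraries were compared by exact binomial tests (SciPy 1.17.1) on TMM sizes (edgeR 4.0.16, R 4.3.3) for genes with at least 10 counts in all, with a prior count of 0.5. Tested on simulated data for the comparison of the libraries (464 genes), this called 100% of the 200 genes given a 2-fold change and 2.65% of the unchanged 264. The simulated counts held counting error alone, and the changed genes were drawn from those with at least 200 counts in all. These rates therefore do not cover the further spread between real libraries or changes in genes with fewer counts. A copy means an identical mature form made by another gene. Alternatives were library totals, DESeq2 1.42.0 size factors, an edgeR exact test, other floors and prior count, either strand, copies left out, and each library alone. Named genes were the members, their seed relatives, tissue lists and the genes nearest in level to the highest member of each cluster; Mir32, whose seed is on the 5p arm, was added after its values were seen. The members and lists were chosen with earlier results of these data known. Intervals cover counting error only and, like the exact tests, treat each read as independent. PCR reads are not independent molecules, so the intervals can be too narrow and the exact p-values too small.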

Additional observations from a re-analysis of the deposited data

Results flagged for a closer look

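Multi-mapped reads, which enter none of the gene counts, made up 40.6% of the total in replicate 1 and 43.9% in replicate 2, which is 4315754 and 4589546 reads. The tables do not say which genes they came from, and Mir92-2 and Mir19b-2 are the members with an identical mature form elsewhere. No member had a read on the opposite strand.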

How the results depend on the processing

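Of the results on cluster shares, cluster ratios and counts of members, 29 comparisons with an alternative were counted as unchanged and 6 were not. Shares and ratios had to equal the main value or stay within the replicate SD of it. Counts of members needed only to be close, so 6 against 5 passing and 8 against 9 detected were among the 29. Some of the 29 could not have moved. For shares and ratios, either library alone always lies within the SD of 2 libraries around their mean. Counting either strand could not change the ratios, since no member had a read on the opposite strand. The Mcm7 cluster has no gene with a copy, so leaving copies out could not change its share. With all reads as the denominator the Mcm7 share was 1.48% and the X share 0.117%. Taken per member, the ratio of the Mcm7 cluster over the X cluster was 25.6, since the clusters have 3 and 6 genes. The miR-25/92 ratio was 1.03 both with genes that have copies left out and against the highest X member alone, and without copies Mir25 made up 4.91% of the seed. The edgeR exact test with a dispersion estimated from these libraries called 0 members, against 5 in the binomial test. Leaving out a library gave 11.3 to 14.3 for the cluster ratio, 17.6 to 21.4 for the miR-17 seed and 0.681 to 0.831 for the miR-25/92 seed. With library totals 6 members passed the binomial test, against 41.1% of all genes tested. Mir92-2 was among them (0.17, exact adjusted p = 0.0209), and Mir25 and Mir20b reversed, at 0.056 and 0.043. DESeq2 size factors, a floor of 50 counts, no floor and either strand left the number called at 5. The share of all genes called was 39.2% with DESeq2 size factors and 39.3% with either strand. It was 24.2% of 720 genes with no floor. With the floor of 50 counts it was 58.4% of 293 genes, beside 5 of the 8 members tested. A floor of 50 counts left 8 members detected. At 26 and 28 counts, Mir19b-2 has an interval of -1.12 to 0.53 on the log2 ratio, the widest of the 9 members.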
